A study of Mus musculus with 6 samples.

Results

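The 10 genes described here mark the intercalated cells of the renal collecting duct and carry out their anion exchange and ammonia transport. They are Foxi1, Slc4a1, Slc26a4, Slc4a9, Kit, Rhbg, Rhcg, Insrr, Hmx2 and Dmrt2. They were chosen by symbol, with earlier results of these data known, and all 10 were found among the 55367 gene symbols that each library lists. RNA was sequenced from kidney cells that bind Dolichos biflorus agglutinin (DBA), a lectin used to enrich collecting duct and distal tubule epithelium, in 3 groups of 2 libraries each, all labelled Day115. WT mice carried intact Pkd1 and received saline, ADPKD mice were Pkd1-/- and received saline, and ADPKD+MMPP mice were Pkd1-/- and were treated with MMPP, a PEG-coated, Mn2+-chelated melanin-like nanoparticle given intravenously. The Pkd1-/- mice came from male Pkd1 fl/fl;Cre/Esr1+ animals in which tamoxifen activated Cre after birth, and the promoter that drives this Cre is not given in the sources used here. The cells were enriched on beads after enzymatic digestion of the kidney, so cells other than collecting duct cells can remain. Nothing in the labels says that the 2 libraries of a group came from separate mice, so p-values measure only the spread between these libraries, which may be technical.

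Intercalated cells set the acid-base balance of the collecting duct, where they lie between the more numerous principal cells that take up sodium and water. Alpha intercalated cells secrete protons into the urine and return bicarbonate to the blood through the anion exchanger Slc4a1, whereas beta intercalated cells secrete bicarbonate in exchange for chloride through pendrin, the product of Slc26a4, and carry Slc4a9 on the basolateral side. Both types depend on the forkhead transcription factor Foxi1, and mice without it lack mature intercalated cells.

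The Foxi1 gene lies on the minus strand at chr11:34204338-34208089 and Slc26a4 on the minus strand at chr12:31519827-31559969 (GRCm38, GENCODE vM21). The 250 bases before the RefSeq start of each gene (GRCm38.p6, given 5′ to 3′ along the gene) are shown because Foxi1 is the transcription factor of intercalated cell identity and Slc26a4 encodes the exchanger that defines beta cells. Capitals mark TATAA, the core of a TATA box, which a search added after the promoters had been read found on the gene's own strand. It stood 30 bases before the start of Foxi1 and 31 bases before that of Slc26a4.
Foxi1, chr11:34208090-34208339, minus strand: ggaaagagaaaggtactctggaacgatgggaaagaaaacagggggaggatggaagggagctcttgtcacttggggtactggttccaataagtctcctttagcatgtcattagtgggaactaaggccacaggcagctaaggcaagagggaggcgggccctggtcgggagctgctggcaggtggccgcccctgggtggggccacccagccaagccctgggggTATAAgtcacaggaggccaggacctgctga
Slc26a4, chr12:31559985-31560234, minus strand: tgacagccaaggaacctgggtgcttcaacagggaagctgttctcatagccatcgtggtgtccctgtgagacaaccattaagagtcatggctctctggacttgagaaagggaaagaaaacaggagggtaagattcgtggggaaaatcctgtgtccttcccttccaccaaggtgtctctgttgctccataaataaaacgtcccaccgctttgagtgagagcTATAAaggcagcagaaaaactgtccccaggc
RefSeq promoter windows of 300 bases, 250 before and 50 after the start, were matched for 6 members (Foxi1, Slc26a4, Kit, Rhcg, Hmx2 and Dmrt2), in 8 windows. TATAA was present on either strand in 3 of these 8 windows (Foxi1, Slc26a4 and Hmx2) and in 24.9% of all 32851 windows. The forkhead core TGTTTAC, searched on both strands, was in 0 of the 8 windows and in 3.65% of all windows. TGACG, the core of the cAMP response element, was likewise in 0 of the 8 windows and in 20.8% of all windows. These matches describe letters only.

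Several facts of the libraries touch the values below. FPKM times exon length fell on whole reads (within 0.05 read) for 98.3% to 99.0% of low values. The depth derived from these steps was 30.6 to 33.1 M reads for the WT and ADPKD libraries, but 11.8 and 10.9 M for those treated with MMPP. Odd read numbers made up 35.2% to 37.2% of these values in WT and ADPKD, against 7.67% and 7.17% in ADPKD+MMPP. Read numbers below may thus not be independent counts, above all in ADPKD+MMPP. They and the depths may not be comparable between ADPKD+MMPP and the other libraries. In ADPKD+MMPP against ADPKD, the change of a gene also rose with its exon share. This is the part of its exon bases found in exactly 1 of its own annotated transcripts, and transcripts of overlapping genes were not counted. Spearman's rho was 0.648 across 12374 protein-coding genes, which are not independent replicates, whereas it was 0.045 in ADPKD against WT. As all ADPKD+MMPP libraries have this property and no other library does, it cannot be told apart from the treatment, and the changes of members that involve ADPKD+MMPP are therefore also given after centring. Centring subtracted, in each library, the median log2 level of the protein-coding genes with a like share, in 20 bins. Pkd1 itself was at 17.7 and 17.2 FPKM in WT, 7.64 and 8.91 FPKM in ADPKD, and 4.34 and 3.99 FPKM in ADPKD+MMPP, and thus lower in all 4 Pkd1-/- libraries than in both WT libraries. Which exons were deleted is not given in the sources used here, and reads from remaining exons count toward these values.

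The enriched cells held RNA of other cell types. Aqp2, the principal cell water channel, stood at 1267 and 1776 FPKM in WT, 1392 and 677 FPKM in ADPKD, and 3555 and 3499 FPKM in ADPKD+MMPP. In a bulk sample, fewer cells of a type and less RNA per cell cannot be told apart, and this holds for every result below. The members themselves were present in WT libraries at levels that followed a clear order of mean FPKM, a scale that is per length. Rhcg was highest at 163 ± 11.6 FPKM (SD, n = 2), followed by Slc26a4 at 96.5 ± 18.2 FPKM and Slc4a9 at 54.2 ± 4.27 FPKM. Insrr at 19.3 ± 2.07 FPKM and Slc4a1 at 17.7 ± 4.06 FPKM overlapped, as did Foxi1 at 8.39 ± 1.19 FPKM and Rhbg at 7.97 ± 0.996 FPKM. Dmrt2, Kit and Hmx2 closed the order at 5.16 ± 0.368, 3.97 ± 0.654 and 2.78 ± 0.140 FPKM. The other neighbours in this order did not overlap between their libraries.

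The first comparison, ADPKD against WT, asked how loss of Pkd1 changed the cells. Intercalated cell genes of both types were lower in ADPKD: 8 of the 10 members were called lower and 0 higher, with a median log2 fold change of -2.10. Calls required a 1.5-fold change and an unadjusted P below 0.05 in limma on log2(FPKM + 1), and 26.8% of the 14862 genes tested were called in this comparison, 14.2% higher and 12.5% lower, around a median of 0.03. Of 12374 protein-coding genes, 27.3% were called after centring, 13.7% higher and 13.6% lower, and the members still counted 8 lower and 0 higher. The libraries of the same 8 members did not overlap between the groups, all in the lower direction. Of all genes tested, 31.5% lay wholly lower and 35.5% wholly higher. All 10 members passed the filter of at least 1 FPKM in at least 2 libraries. Of the alpha genes, Slc4a1 was called and Kit was not, and Rhcg was not called either.

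Among the transcription factors, Foxi1 was at 9.23 and 7.55 FPKM in WT and at 2.14 and 1.35 FPKM in ADPKD. Both ADPKD libraries lay below both WT libraries, and Foxi1 fell by 1.78 on the log2 scale (SE 0.18, adjusted p = 0.00329). Dmrt2, a DM-domain transcription factor (chr19:25672411-25678991, plus strand), was at 4.90 and 5.42 FPKM in WT and 1.57 and 0.681 FPKM in ADPKD. Its log2 fold change was -1.57 (SE 0.22, adjusted p = 0.00678), close to that of Foxi1 and without overlap. Hmx2, a homeobox transcription factor (chr7:131548773-131558014, plus strand), was the lowest of the 10 in WT, at 2.68 and 2.88 FPKM. It reached 0.489 and 0.126 FPKM in ADPKD, values that rest on 52 and 13 reads, with a log2 fold change of -1.55 (SE 0.21, adjusted p = 0.00605). The gene span of Hmx2 overlaps Fgfr2 on the opposite strand, without shared exon bases, and Fgfr2 was at 11.8 and 10.3 FPKM in WT and 6.42 and 5.26 FPKM in ADPKD. On the scale of mean FPKM, Foxi1, Dmrt2 and Hmx2 kept 20.8%, 21.8% and 11.05% of their WT level.

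Of the alpha genes, Slc4a1 (chr11:102348824-102366203, minus strand) fell from 20.6 and 14.9 FPKM in WT to 3.02 and 0.0128 FPKM in ADPKD. Slc4a1 was thus low in both ADPKD libraries, but far lower in replicate 2, where it rests on 2 reads, under the floor of 3 reads. Its log2 fold change was -3.20 (SE 0.61, adjusted p = 0.0154), and it was -2.20 without ADPKD replicate 2 and -4.19 without ADPKD replicate 1. In such fits ADPKD holds 1 library, which is assumed to vary like the libraries of the other groups. Kit, the stem cell factor receptor that is found on the surface of intercalated cells (chr5:75574916-75656722, plus strand), behaved otherwise. It was at 4.43 and 3.51 FPKM in WT and 3.01 and 4.11 FPKM in ADPKD, so that the groups overlapped. The log2 difference of Kit was -0.13 (SE 0.18, adjusted p = 0.629), with values of 0.01 without WT replicate 1 and 0.05 without ADPKD replicate 1.

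Both alpha genes also have uses outside the kidney tubule, Slc4a1 in red blood cells and Kit in mast cells. Of 9 erythroid markers, 2 passed the filter, and the levels of all 9 were summed. These sums were 4.09 and 6.81 FPKM in WT, 3.40 and 2.60 FPKM in ADPKD, and 4.79 and 1.63 FPKM in ADPKD+MMPP, so that Slc4a1 was above them in WT and ADPKD+MMPP and below them in ADPKD. Most of each sum came from 1 globin gene, a different one in ADPKD+MMPP than in WT and ADPKD, so the sums do not describe the erythroid list as a whole. The 7 mast cell markers summed to 3.78 and 2.80 FPKM in WT, 2.33 and 1.78 FPKM in ADPKD, and 4.68 and 4.17 FPKM in ADPKD+MMPP, levels near those of Kit in WT and above those of Kit in ADPKD+MMPP. Most of each sum came from Hdc, at 3.53 and 2.53 FPKM in WT and 2.996 and 2.87 FPKM in ADPKD+MMPP. These sums therefore do not describe the mast cell list as a whole. Mcpt4, Tpsb2 and Fcer1a were at 0 in all 6 libraries, and of the 7 markers only Hdc and Ms4a2 passed the filter. Their log2 fold changes in ADPKD were -0.93 and 0.78, both called. The part of red blood cells and mast cells in the values of Slc4a1 and Kit was not tested.

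The beta genes fell as well. Slc26a4, which encodes pendrin, was at 83.6 and 109 FPKM in WT and at 12.4 and 2.15 FPKM in ADPKD. Neither ADPKD library came near the WT range, and its log2 fold change of -3.89 (SE 0.63, adjusted p = 0.00976) was the largest fall of the 10 members on the log2(FPKM + 1) scale, with -2.85 without ADPKD replicate 2 and -4.94 without ADPKD replicate 1. With a pseudocount of 0.1 the falls of Slc4a1 (-4.89) and Insrr (-4.27) exceeded that of Slc26a4 (-4.17). Slc4a9, the basolateral exchanger of beta cells, was at 51.2 and 57.2 FPKM in WT and 12.7 and 6.60 FPKM in ADPKD, a log2 fold change of -2.43 (SE 0.28, adjusted p = 0.00439). Insrr, the insulin receptor-related receptor that senses alkali (chr3:87796951-87816101, plus strand), was at 17.8 and 20.8 FPKM in WT. In ADPKD it was at 3.04 and 0.218 FPKM, a log2 fold change of -3.19 (SE 0.53, adjusted p = 0.0102). Insrr moved between -2.32 and -4.05 when single libraries were left out, the 2 ends being the fits without ADPKD replicates 2 and 1. The gene span of Insrr overlaps Pear1 on the opposite strand, without shared exon bases, and Pear1 was at 16.1 and 22.0 FPKM in ADPKD against 22.9 and 22.4 FPKM in WT.

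The ammonia transporters split. Rhbg, the basolateral transporter (chr3:88242874-88254709, minus strand), was at 8.68 and 7.27 FPKM in WT and 1.53 and 0.113 FPKM in ADPKD, the last on 7 reads. It did not overlap between the groups, and its log2 fold change was -2.41 (SE 0.39, adjusted p = 0.00974), or -1.82 and -3.01 without ADPKD replicates 2 and 1. Rhbg shares 61.4% of its exon bases with Gm38392 on the same strand, so its level is uncertain, although Gm38392 was listed at 0 FPKM in 5 of 6 libraries and at 0.0992 FPKM in ADPKD replicate 1. Rhcg, a transporter found on the apical side of both intercalated and principal cells (chr7:79593363-79617657, minus strand), was at 155 and 171 FPKM in WT and 172 and 42.3 FPKM in ADPKD. ADPKD replicate 1 thus lay just above the WT range and replicate 2 far below it, and the log2 difference of -0.92 (SE 0.60, adjusted p = 0.294) was not called. It was 0.07 without ADPKD replicate 2 and -1.92 without ADPKD replicate 1, the fit in which Rhcg was called and 9 members were lower.

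**Figure D1:**
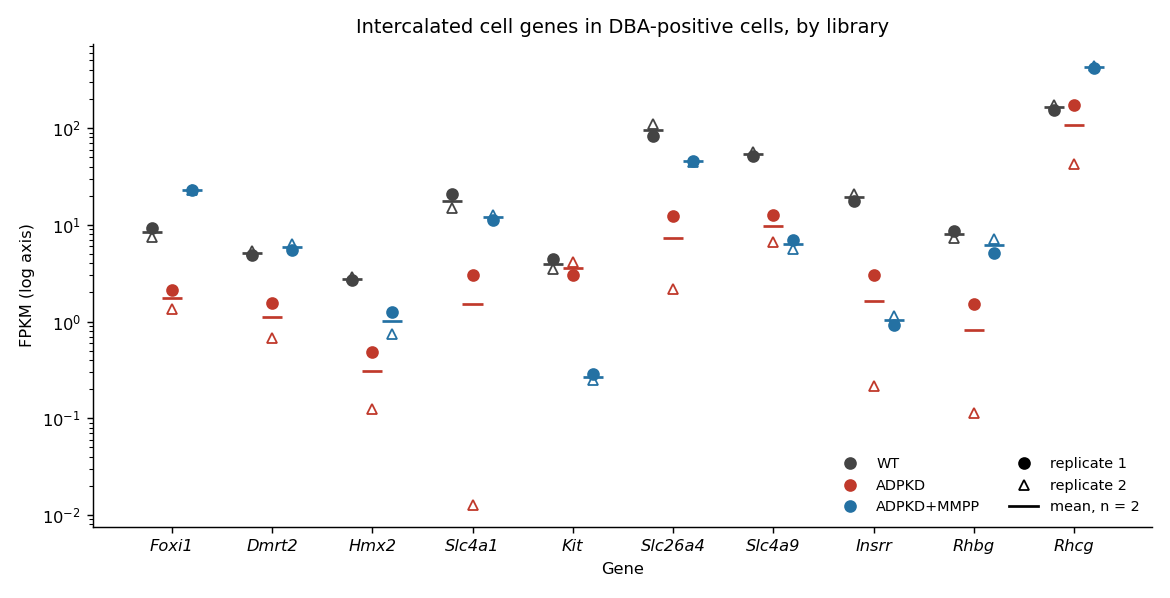
FPKM of the 10 members in each of the 6 libraries on a log axis, with filled circles for replicate 1, open triangles for replicate 2 and a bar for the mean of each group (n = 2). Foxi1, Dmrt2, Hmx2, Slc4a1, Slc26a4, Slc4a9, Insrr and Rhbg have both ADPKD points below both WT points, and the points of Kit are lowest in ADPKD+MMPP.

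For each of the 10 members, the 2 ADPKD libraries differed by a larger factor than the 2 libraries of WT or of ADPKD+MMPP. For 9 of the 10 members replicate 2 was below replicate 1, by 1.59-fold for Foxi1 up to 13.9-fold for Insrr, and by more for Slc4a1, which had 2 reads in replicate 2. Kit was the exception. The same library was also lower in the sum of principal cell markers, at 965 FPKM against 2538 FPKM in ADPKD replicate 1 and 2139 and 2829 FPKM in WT. Distal convoluted tubule markers summed to 58.7 and 24.0 FPKM in ADPKD replicates 1 and 2. Most of the sum in replicate 2 came from 1 marker that was higher there than in replicate 1, so these sums do not describe the list as a whole. The other markers of the list were lower in replicate 2, Slc12a3 at 3.14 FPKM against 35.6 FPKM. The part of these differences in the members' changes was not tested.

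The fall was set beside lists of other genes, by counts alone. These lists were also chosen with earlier results of these data known, so their counts do not test the fall independently. Of 20 other intercalated cell genes, 18 passed the filter, and 12 of these were called lower and 0 higher in ADPKD, with a median log2 fold change of -1.40. Several encode subunits of the vacuolar proton pump. Atp6v1g3 was at 46.5 and 48.3 FPKM in WT and 10.7 and 4.64 FPKM in ADPKD, a log2 fold change of -2.57 (SE 0.33, adjusted p = 0.00539). Atp6v1b1 fell by 1.93 (adjusted p = 0.0466), Atp6v1c2 by 2.67 (adjusted p = 0.00842) and Atp6v0d2 by 1.25 (adjusted p = 0.00973) on the log2 scale. Atp6v0a4 stayed uncalled at -0.11 (SE 0.17, adjusted p = 0.661), with libraries at 27.8 and 24.99 FPKM in WT and 27.8 and 21.4 FPKM in ADPKD.

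Other genes of the list that fell were Oxgr1, the alpha-ketoglutarate receptor of beta cells, which fell by 2.20 (adjusted p = 0.00789), and Aqp6, an intracellular channel of alpha cells, which fell by 2.05 (adjusted p = 0.0433). Hepacam2, Adgrf5 (which endothelium also expresses), Avpr1a, Slc26a7, Car15 and Car12 were also called lower, with log2 fold changes between -1.66 and -1.28, and Car12 had an adjusted p of 0.0701. Not called were Car2 and Tfcp2l1, which principal cells also express, with Adgrf1, Ltc4s and Spink8. Clnk and P2ry14 did not pass the filter.

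Principal cell markers did not share the pattern by count: of 10 tested, 0 were called lower and 1 higher, with a median of -0.38. After centring 1 was lower and 1 higher, with a median of -0.52. Aqp2 had a log2 difference of -0.63 (adjusted p = 0.240), not called as deposited, and was called lower after centring, at -0.79 (adjusted p = 0.107). Hsd11b2, the enzyme that inactivates glucocorticoids in these cells, had a log2 difference of -1.32 (adjusted p = 0.302), with 357 and 433 FPKM in WT and 432 and 56.4 FPKM in ADPKD. Of 5 distal convoluted tubule markers, 4 were called lower, with a median of -1.76, among them Slc12a3, the thiazide-sensitive cotransporter, at 80.6 and 70.2 FPKM in WT and 35.6 and 3.14 FPKM in ADPKD. Of 5 thick ascending limb markers 2 were lower. Leukocyte markers moved the other way, with 7 of 7 tested called higher and sums of 214 and 166 FPKM in WT and 923 and 520 FPKM in ADPKD, and 5 of 6 fibroblast markers were higher as well. Of the 6 endothelial markers 5 were lower and 1 higher, and of the 10 proximal tubule markers 4 were higher and 1 lower. The part of these other cell types in the fall of the members was not tested.

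The second comparison, ADPKD+MMPP against ADPKD, asked what treatment changed in Pkd1-/- cells. Here the members diverged: 7 of 10 were called higher and 1 lower, with a median log2 fold change of 1.91. Of the 14862 genes tested, 70.9% were called in this comparison, 27.9% higher and 43% lower, around a median of -0.36. After centring by exon share, 6 members were higher and 1 lower, with a median of 1.43, where 58.3% of 12374 protein-coding genes were called, 33.8% higher and 24.5% lower, around a median of 0.15. After rescaling to a common sum 6 members were higher and 2 lower, where 3286 of 14964 genes tested were higher and 7151 lower. The libraries of 7 members lay wholly higher in ADPKD+MMPP and those of 1 wholly lower, as held for 36.1% and 51.7% of all genes. Markers of other cell types moved in the same comparison. Of 5 distal convoluted tubule markers 4 were higher and 1 lower (median 2.22), and of 10 proximal tubule markers 7 were higher and 0 lower (median 2.53). Among principal cell markers 4 of 10 were higher and 3 lower, and among leukocyte markers 1 of 7 was higher and 5 lower. After centring the counts were 3 higher and 0 lower for distal convoluted tubule, 9 and 0 for proximal tubule, 2 and 1 for principal cell and 2 and 2 for leukocyte markers. The part of these cell types in the members' changes was not tested.

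Foxi1 was at 23.1 and 22.9 FPKM in ADPKD+MMPP, above both ADPKD libraries and also above both WT libraries. It rose by a log2 fold change of 3.14 over ADPKD (SE 0.18, adjusted p = 3.9e-05), and by 1.96 after centring, a value that was still called. Dmrt2 was at 5.44 and 6.35 FPKM, a log2 fold change of 1.73 (SE 0.22, adjusted p = 0.000763), which became 0.55 and was not called after centring. Hmx2 was at 1.26 and 0.741 FPKM, on 48 and 26 reads. It rose by 0.62 on the log2 scale (SE 0.21, adjusted p = 0.0351), by 1.28 after centring, but was not called without ADPKD replicate 2 (0.42) or without ADPKD+MMPP replicate 1 (0.43).

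Slc4a1 and Kit, the alpha genes, moved apart. Slc4a1 was at 11.3 and 12.7 FPKM, above both ADPKD libraries, with a log2 fold change of 2.68 (SE 0.61, adjusted p = 0.00801), or 1.69 without ADPKD replicate 2, 3.68 without ADPKD replicate 1 and 1.57 after centring. Kit was at 0.285 and 0.247 FPKM, on 30 and 24 reads, and lay below all 4 WT and ADPKD libraries. It fell by 1.84 on the log2 scale (SE 0.18, adjusted p = 0.000243), and centring left a log2 fold change of -0.65 that was still called.

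The beta genes also differed among themselves. Slc26a4 rose to 45.3 and 45.0 FPKM, a log2 fold change of 2.83 (SE 0.63, adjusted p = 0.00747), or 1.78 and 3.88 without ADPKD replicates 2 and 1 and 1.79 after centring. Slc4a9 was at 6.90 and 5.64 FPKM, overlapping the ADPKD libraries at 12.7 and 6.60 FPKM. Its log2 difference of -0.49 (SE 0.28, adjusted p = 0.156) was not called, was -0.92 without ADPKD replicate 2, and became 0.62, not called, after centring. Insrr was at 0.919 and 1.15 FPKM, between the 2 ADPKD libraries, with a log2 difference of -0.13 (SE 0.53, adjusted p = 0.836). The direction of Insrr depended on the ADPKD library used, with -0.99 without replicate 2 and 0.74 without replicate 1, and it was 1.64 and called after centring.

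Both ammonia transporters were higher after treatment. Rhbg rose to 5.16 and 7.19 FPKM, a log2 fold change of 2.08 (SE 0.39, adjusted p = 0.00367) that became 0.91 and was not called after centring, and that was 1.49 and 2.67 without ADPKD replicates 2 and 1. Rhcg was at 420 and 439 FPKM, above all 4 WT and ADPKD libraries, with a log2 fold change of 2.32 (SE 0.60, adjusted p = 0.0132) and 2.30 after centring. The value for Rhcg was 1.32 without ADPKD replicate 2 and 3.31 without replicate 1.

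**Figure D2:**
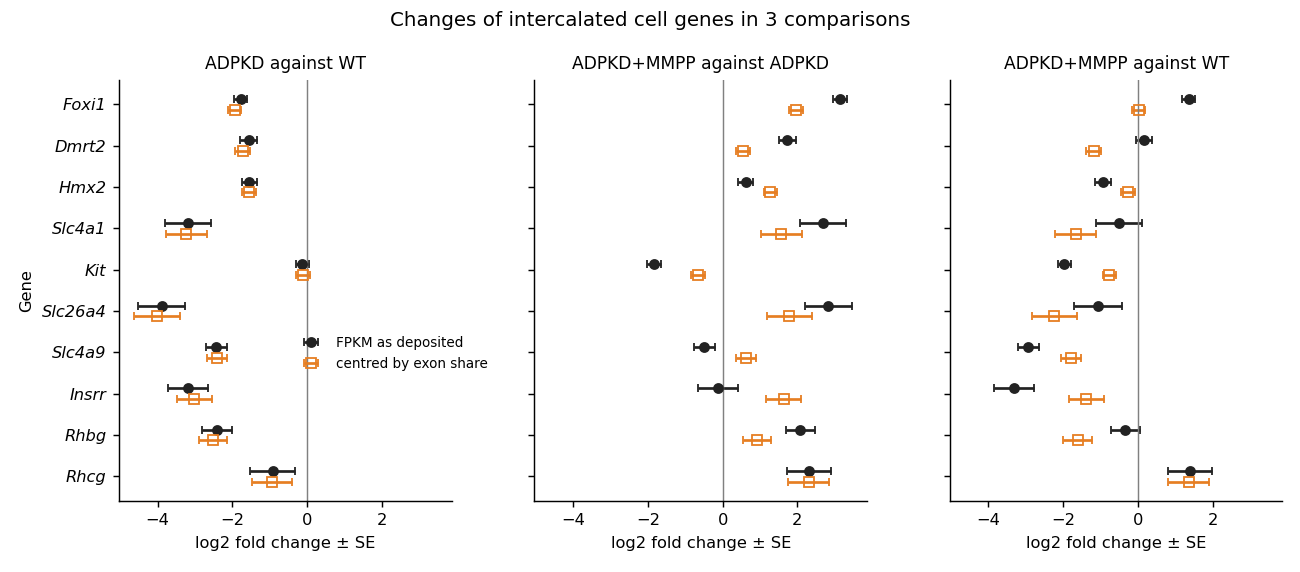
Log2 fold change of each member in the 3 comparisons, with bars for the standard error from limma (n = 2 libraries a group), as deposited (black circles) and after centring by exon share (orange squares). In ADPKD against WT both sets lie together, with 8 members called lower in each, whereas in the comparisons with ADPKD+MMPP centring moves 9 of the 10 members and barely moves Rhcg.

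After treatment the members were also grouped by transcript structure, at a boundary of 60% that was not part of the planned tests. This boundary lies between the shares of Hmx2 and Rhcg, so the separation below describes these members and tests nothing. The 6 members with at least 60% of exon bases in exactly 1 of their own transcripts were Foxi1, Rhbg and Dmrt2 (100%, with 1 transcript each), Slc26a4 (88.7%), Slc4a1 (85.4%) and Rhcg (65.5%). Their changes ran from 1.73 to 3.14. The 4 members under 60% were Hmx2 (55.5%), Slc4a9 (43.1%), Kit (37.7%) and Insrr (15.6%), and their changes ran from -1.84 to 0.62. The share leaves out the overlap of Rhbg with Gm38392, which covers 61.4% of the exon bases of Rhbg. With that overlap counted, Rhbg (2.08) would lie under 60%, and the ranges would overlap. Protein-coding genes at large had a median of 0.78 at or above 60% (5285 genes) and -1.06 below it (7089 genes). After centring, the ranges of the members overlapped, at 0.55 to 2.30 and -0.65 to 1.64. In ADPKD against WT the same groups of members overlapped without centring, at -3.89 to -0.92 and -3.19 to -0.13.

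**Figure D3:**
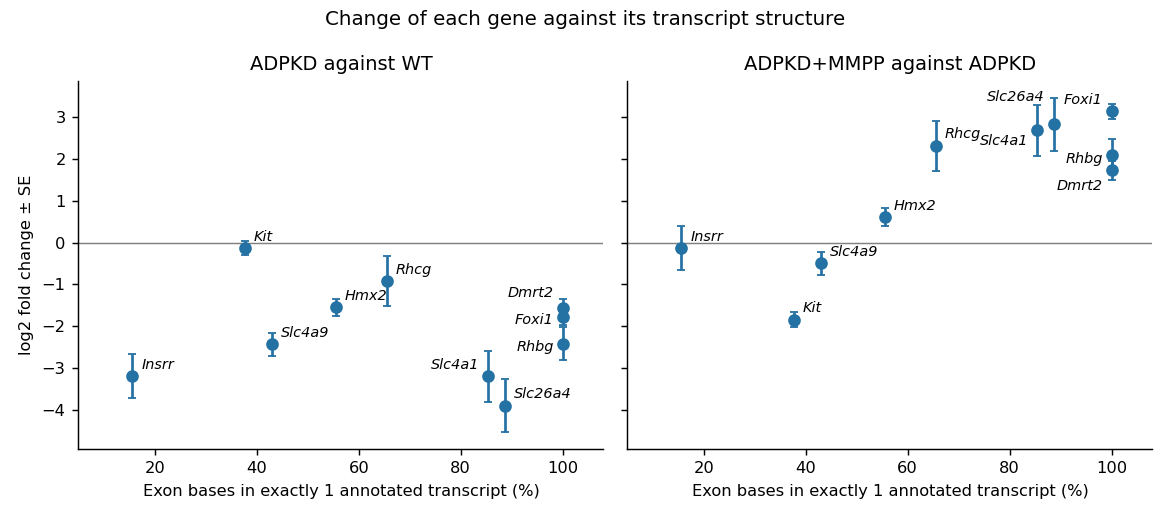
Log2 fold change of each member (bars: standard error, n = 2 libraries a group) against the percentage of its exon bases found in exactly 1 of its own annotated transcripts, for ADPKD against WT (left) and ADPKD+MMPP against ADPKD (right). Overlap with other genes, as of Rhbg with Gm38392, was not counted. On the right the 6 members at or above 60% lie between 1.73 and 3.14 and the 4 below it between -1.84 and 0.62, and on the left the 2 ranges overlap. The boundary of 60% was not planned.

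Of the other intercalated cell genes, 13 of 18 were called higher and 4 lower after treatment, with a median of 1.02, and 10 were higher and 2 lower after centring. All 10 with an exon share of at least 60% were called higher, whereas of the 8 under 60% 3 were higher, 4 lower and 1 not called. Protein-coding genes at large had medians of 0.78 at or above this boundary and -1.06 below it. The share of them called in each class was not computed, so these counts are not a result about intercalated cell genes. Rescaling to a common sum gave 9 higher and 5 lower, where 3286 of 14964 genes tested were higher and 7151 lower. Quantile normalization gave 12 and 2, where 5364 of 14862 genes were higher and 4581 lower. Atp6v1g3 (100% of exon bases in 1 transcript) rose to 34.6 and 39.9 FPKM, a log2 fold change of 2.23 (adjusted p = 0.0013) and of 1.19 after centring. Oxgr1 (100%) rose by 2.96 (adjusted p = 0.000419), or 1.78 after centring. Atp6v1b1 (69.0%), Tfcp2l1 (96.7%) and Car2 (79.9%) rose by 2.30, 2.13 and 1.84, and by 2.09, 1.09 and 1.03 after centring. The 4 that were lower, Atp6v0a4 (31.5%), Adgrf5 (35.0%), Car12 (51.7%) and Atp6v1c2 (19.1%), had log2 fold changes of -3.45, -2.35, -1.49 and -1.12. After centring these were -2.07, -0.97, -0.85 and 0.64, and Car12 and Atp6v1c2 were not called. Aqp6 (56.1%), Car15 (51.6%) and Spink8 (22.4%), the 3 that rose with a share under 60%, had log2 fold changes of 1.91, 1.24 and 1.02, or 2.58, 1.88 and 2.66 after centring.

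The third comparison, ADPKD+MMPP against WT, asked how far treated cells lay from WT. It shares its libraries with both other comparisons. As deposited, 1 member was called higher and 4 lower, with a median of -0.72, where 73.9% of all genes were called, 30.1% higher and 43.8% lower, around a median of -0.36. After centring, 1 member was higher and 7 lower, with a median of -1.28, where 62.6% of 12374 protein-coding genes were called, 35.8% higher and 26.8% lower, around a median of 0.17. Median-of-ratios scaling gave 2 higher and 4 lower, and quantile normalization 2 and 3. The shares of all genes called under these scalings are not given here, so shifts of all genes may enter these counts. Foxi1 was 1.36 above WT on the log2 scale (SE 0.18, adjusted p = 0.000735), but 0.02 after centring, so its position above WT was not kept. Rhcg was 1.39 above WT (SE 0.60, adjusted p = 0.0733), not called in the fit over 6 libraries but called after centring, at 1.36, and in the fit of these 2 groups alone.

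Slc4a9, Insrr, Kit and Hmx2 were lower than WT, with log2 fold changes of -2.93 (SE 0.28, adjusted p = 0.000208), -3.32 (SE 0.53, adjusted p = 0.00169), -1.97 (SE 0.18, adjusted p = 0.000163) and -0.93 (SE 0.21, adjusted p = 0.00705). Slc4a9, Insrr and Kit were also called after centring, at -1.79, -1.39 and -0.76, and Hmx2, at -0.27, was not. Slc26a4 was at 46.8% of its mean FPKM in WT, Slc4a1 at 67.6% and Rhbg at 77.4%. Their log2 differences of -1.06, -0.51 and -0.33 (adjusted p = 0.167, 0.464 and 0.459) were not called as deposited, and all 3 were called lower after centring, at -2.23, -1.66 and -1.62. Slc26a4 was called, with the same value, in the fit of these 2 groups alone. Dmrt2 was at 0.16 (SE 0.22, adjusted p = 0.527), and at -1.18 and called after centring. The libraries of 3 members lay wholly above WT and those of 7 wholly below it, against 38.9% and 53% of all genes.

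Of the other intercalated cell genes, 3 of 18 were higher than WT and 6 lower as deposited, and 4 were higher and 9 lower after centring. These counts were 6 and 6 with median-of-ratios scaling, 4 and 4 after quantile normalization, and 3 and 8 after rescaling to a common sum. Shifts of all genes may enter these counts too. Tfcp2l1, at 113.5 and 115.3 FPKM against 22.8 and 23.8 FPKM in WT, was higher by 2.25 (adjusted p = 7.4e-05), or 1.08 after centring, and Car2 by 2.27 (adjusted p = 0.00286), or 1.45 after centring. Among principal cell markers 2 were higher and 1 lower than in WT (1 and 1 after centring), with sums of 5453 and 5474 FPKM. Proximal tubule markers summed to 9962 and 9528 FPKM after treatment, against 842 and 678 FPKM in WT and 1616 and 1499 FPKM in ADPKD. Most of each sum in ADPKD and ADPKD+MMPP came from 1 marker, so the sums do not describe the list as a whole. By count, 8 of 10 proximal tubule markers were higher than in WT, as deposited and after centring. The part of these other cell types in the members' values was not tested.

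**Figure D4:**
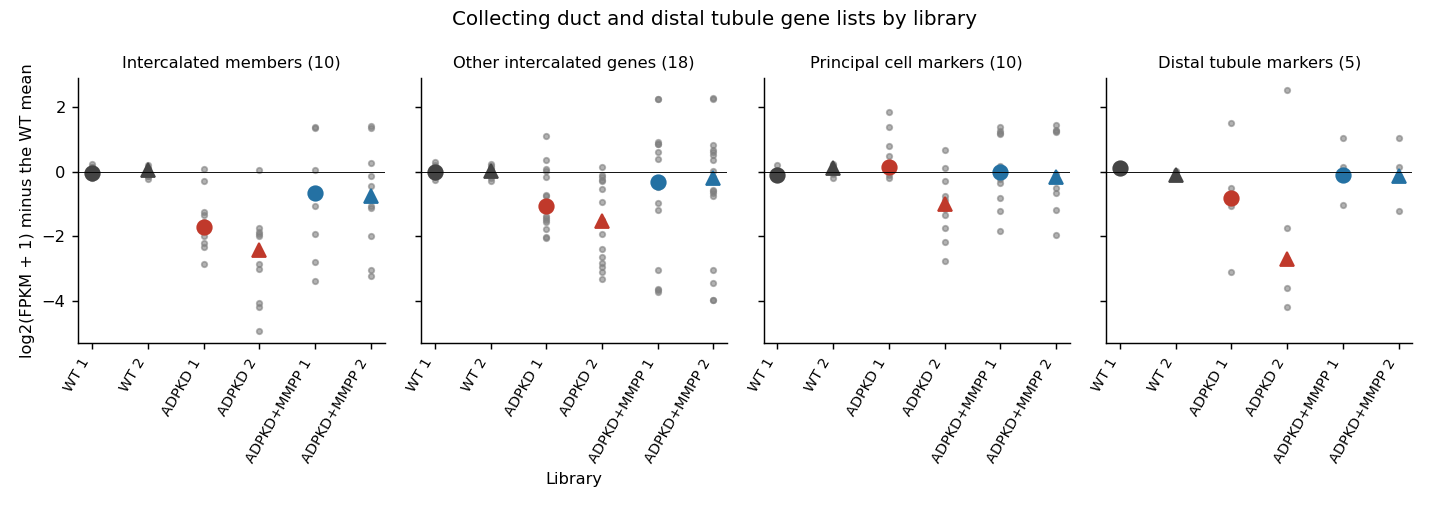
Difference of log2(FPKM + 1) from the WT mean in each library, for the tested genes of 4 lists (number in brackets), with small grey points for genes and large symbols for the median of the list in that library. The medians of both intercalated lists lie below WT in both ADPKD libraries, and that of the principal cell list lies below WT in ADPKD replicate 2 and close to it in replicate 1.

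The balance of alpha and beta exchangers was described by ratios of FPKM within a library. With 2 libraries against 2, an exact permutation test cannot reach p = 0.05, so none was made. Slc26a4 over Slc4a1 was 4.06 and 7.35 in WT, 4.11 in ADPKD replicate 1, and 4.003 and 3.56 in ADPKD+MMPP. In ADPKD replicate 2 it was 168, on 2 reads of Slc4a1, with a 95% counting interval of 46.6 to 1390 (exact Poisson interval of the Slc4a1 reads). The other 5 libraries thus lay between 3.56 and 7.35, although both genes were far lower in ADPKD replicate 1 than in WT. Slc4a9 over Slc4a1 was 2.48 and 3.85 in WT, 4.21 and 517 in ADPKD, and 0.610 and 0.445 in ADPKD+MMPP. The value of 517 rests on the same 2 reads, with an interval of 143 to 4270. Both intervals take reads as independent counts. Odd read numbers made up 37.2% of low values in ADPKD replicate 2, so reads may not be independent and the intervals may be too narrow. Slc26a4 over Slc4a9, the pair of beta genes, was 1.63 and 1.91 in WT, 0.977 and 0.326 in ADPKD, and 6.57 and 7.99 in ADPKD+MMPP. Ratios with Slc4a9 in ADPKD+MMPP set a gene with 43.1% of its exon bases in 1 transcript against genes with 85.4% and 88.7%.

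The order of members also changed between groups. In ADPKD, Rhcg was still highest at 107 ± 91.5 FPKM (SD, n = 2), and Slc4a9 at 9.65 ± 4.32 FPKM and Slc26a4 at 7.28 ± 7.26 FPKM overlapped. Kit, ninth in WT, overlapped Slc26a4 at 3.56 ± 0.780 FPKM. In ADPKD+MMPP the order was Rhcg at 429 ± 13.6 FPKM, Slc26a4 at 45.2 ± 0.201 FPKM, Foxi1 at 23.0 ± 0.195 FPKM and Slc4a1 at 12.0 ± 0.949 FPKM, without overlap between neighbours. Slc4a9, Rhbg and Dmrt2 overlapped in sequence at 6.27 ± 0.894, 6.18 ± 1.44 and 5.89 ± 0.649 FPKM, and Kit was last at 0.266 ± 0.0271 FPKM.

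Genes with the profile most like that of a member were found over the 6 libraries among 9431 genes with a mean of at least 5 FPKM in at least 1 group, as the smallest root mean square difference between log2(FPKM + 1) values centred on each gene's own mean. For Foxi1 these were Gm13340 (0.19), S100g (0.26), Acss1 (0.26), Gm44120 (0.26) and Oxgr1 (0.30), the last an intercalated cell gene at 8.12 and 5.03 FPKM in WT, 1.17 and 0.201 FPKM in ADPKD and 12.3 and 10.9 FPKM in ADPKD+MMPP. Slc26a4 was followed by Klk1 (0.25), Pvalb (0.57), Gm28437 (0.61), Atp6v1g3 (0.63) and Slc12a3 (0.63). Klk1, which encodes tissue kallikrein, was at 792 and 710 FPKM in WT, 149 and 25.5 FPKM in ADPKD and 377 and 342 FPKM in ADPKD+MMPP. Those most like Slc4a1 were Wfdc15b (0.29), Klk1 (0.30), Gm28439 (0.36), Prodh2 (0.40) and Atp6v1g3 (0.40). Klk1 and Atp6v1g3 stood in the lists of both exchangers, and Pvalb and Slc12a3 are markers of the distal convoluted tubule, so the nearest profiles were not limited to intercalated cell genes. The profiles were not centred by exon share, so the tie of ADPKD+MMPP values to that share enters the differences.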

How the data were processed

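The series holds 6 RNA libraries of DBA-positive kidney cells, 2 per group. The authors aligned reads with HISAT2 2.1.0 to GRCm38 (mm10), counted them on genes with featureCounts 1.6.0, and deposited FPKM for each library. The annotation release, the strand setting and the way FPKM was made are not given in the sources used here. Of 55367 symbols, 53253 matched 1 gene of GENCODE vM21, which gave positions and exon lengths. Intervals and the floor of 3 reads cover counting error only, with reads taken as independent.

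A gene was kept when 2 or more libraries had 1 FPKM or more, and the 14862 genes kept were fitted as log2(FPKM + 1) in 1 model of all 6 libraries by limma 3.58.1 (R 4.3.3, intensity trend). Fold changes are on that scale, which understates changes of low genes. P-values were adjusted by Benjamini-Hochberg over all genes tested. Steps were tested on simulated data. Named are the 10 members, tested genes of the other intercalated list, the 2 genes of highest mean in a marker list with defining markers at 0, Pkd1, and the 5 nearest profiles of Foxi1, Slc26a4 and Slc4a1. Members and lists were chosen with earlier results of these data known. Proteins were not analysed here, and 1 marker gene that the rule names is not reported here.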

Additional observations from a re-analysis of the deposited data

How the results depend on the processing

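The 30 changes of members were recomputed under 17 other settings. Of the 510 values, 473 kept direction and side of the threshold, 16 became called, 10 lost the call and 11 changed sign. Members called in ADPKD against WT numbered 8 to 9 when single libraries were left out and 8 under every other setting, against 7 to 9 and 5 to 7 in the comparisons of ADPKD+MMPP with ADPKD and WT when single libraries were left out. For ADPKD+MMPP against WT the count was 8 after centring by exon share, in place of 5. Other intercalated cell genes called ranged over 9 to 14, 12 to 16 and 7 to 11 when libraries were left out. Changes of sign were as follows. Centring gave Slc4a9 0.62 and Insrr 1.64 against ADPKD, and Dmrt2 -1.18 against WT. Insrr against ADPKD was 0.18 with a pseudocount of 0.1, 0.46 after quantile normalization and -0.99 to 0.74 when libraries were left out. Rhbg against WT was 0.082 after quantile normalization, and Dmrt2 was -0.17 after rescaling to a common sum. In ADPKD against WT, Kit ranged from -0.30 to 0.048 and Rhcg from -1.92 to 0.074 when libraries were left out. The calls of all genes also changed between settings, so a moved count of members does not by itself describe the members. The causes were not tested.

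A replicate block changed no call of a member and left 8, 8 and 5 members called. Of the other intercalated cell genes 12, 16 and 10 were then called, in place of 12, 17 and 9. Samples of the same number did not deviate together in every pair of groups (r of 0.129, -0.008 and 0.014), so the numbers were not taken as a pairing. The median change of all genes in ADPKD+MMPP against ADPKD was -0.36 as deposited, -0.56 after rescaling to a common sum, -0.20 with median-of-ratios scaling and 0.10 after quantile normalization. The 2 libraries per group, and 2 to 13 reads for Slc4a1, Rhbg and Hmx2 in ADPKD replicate 2, limit precision.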
